A study of Mus musculus with 249 samples.

Results

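The comparison is between 2 sets of mouse brains that differ in the transcript of Abhd1, a gene of chromosome 5. Of 249 arrays in the series, 1 per animal, the members are the 62 with the lowest Abhd1 value (the low group) and the 62 with the highest (the high group). They were ranked among all arrays but that of animal 144, which was dropped, and the arrays between these ends are called the middle arrays. The groups were chosen by the measured Abhd1 value itself, so Abhd1 is described and not tested. All other genes were tested between the groups, 642 of them on chromosome 5 and 10030 on other chromosomes.

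Every animal, in either group, was an F2 mouse, female or male, of a cross between C57BL/6J and C3H/HeJ in which both parental strains carried the ApoE null background, and ate a high fat "Western" diet from week 8 to week 24 of age. The labels give 330 mice for the cross and no sex, genotype at any locus, litter or array batch for an animal, so the groups differ by no label. Brain RNA of 1 animal carried Cy3 and was hybridised against a common pool of the animals' RNA in Cy5, with no dye swap and no replicate array. All the animals lack ApoE and share the diet, so nothing here describes a mouse with ApoE or on chow. Values are log2 of animal over pool, converted from the deposited log10 ratios, and 0 is the level of the pool. A ratio to a pool of the same brains does not show how strongly a gene or a cell marker is expressed, and in bulk tissue fewer cells of a type and less RNA per cell cannot be told apart.

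Abhd1 belongs to the alpha/beta hydrolase domain family, whose members are mostly serine hydrolases that act on lipids. In an F2 intercross each animal carries a random mix of both parental genomes at each locus, and neighbouring loci on a chromosome are inherited together more often than distant ones. Genes of a chromosome can therefore vary together between animals when each carries its own strain difference, with no regulation of one by another. Allele differences can also lie in the sequence under a probe, where they change hybridisation and not the amount of RNA.

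Promoters of 3 genes are shown first as a description, and no difference was related to their sequences. Evc2 and Galnt11 were among the genes of chromosome 5 with the lowest p-values. Preb overlaps Abhd1 in the annotation yet was not called between the groups. The sequences are those of RefSeq for build GRCm38.p6, which is C57BL/6J and so 1 of the 2 parental strains. Each runs from 250 bases before the start of transcription to 50 after it, 300 in all, 5′ to 3′ on the strand of the gene. Capitals mark the CCAAT box (CCAAT or, on the other strand, ATTGG), the GC box (GGGCGG or CCGCCC) and the TATA box (TATAAA or TTTATA), none of which overlaps another here.
Evc2, chr5:37338228-37338527, plus strand: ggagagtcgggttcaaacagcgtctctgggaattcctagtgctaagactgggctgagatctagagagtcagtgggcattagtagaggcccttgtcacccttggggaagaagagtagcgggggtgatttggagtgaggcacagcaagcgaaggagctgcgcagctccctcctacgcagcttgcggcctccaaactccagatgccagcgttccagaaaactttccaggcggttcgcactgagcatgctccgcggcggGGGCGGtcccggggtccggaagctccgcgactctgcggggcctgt
Galnt11, chr5:25222622-25222921, plus strand, the first of 2 starts: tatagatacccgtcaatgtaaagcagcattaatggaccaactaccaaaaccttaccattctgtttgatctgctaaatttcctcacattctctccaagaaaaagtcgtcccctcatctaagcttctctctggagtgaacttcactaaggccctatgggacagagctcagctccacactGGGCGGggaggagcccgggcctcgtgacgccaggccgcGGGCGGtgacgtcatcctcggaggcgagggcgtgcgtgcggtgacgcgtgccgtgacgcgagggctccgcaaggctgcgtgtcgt
Preb, chr5:30960278-30960577, minus strand: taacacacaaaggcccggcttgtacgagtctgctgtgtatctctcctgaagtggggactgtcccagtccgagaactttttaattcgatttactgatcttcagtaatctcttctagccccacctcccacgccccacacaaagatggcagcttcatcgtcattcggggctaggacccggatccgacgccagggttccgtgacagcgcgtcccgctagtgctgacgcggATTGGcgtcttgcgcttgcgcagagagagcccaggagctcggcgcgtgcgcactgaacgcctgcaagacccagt
Evc2 held 1 GC box and Galnt11 held 2, while Preb held 1 CCAAT box. No TATA box was found in these windows. Of 32851 promoters of the same length, 37.4% held a CCAAT box, 35.7% a GC box and 13.6% a TATA box. The 3 windows were rich in CG pairs, with 19 in Evc2, 23 in Galnt11 and 24 in Preb, against a median of 7 over all promoters. The matches describe the letters of 1 strain, and the other parent's sequence was not analysed here.

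Abhd1 was measured by 1 probe, with no missing value, and RefSeq lists the gene as a transcribed pseudogene in the reference strain. In the low group it ran from -1.39 through a median of -0.94 to -0.53. In the high group it ran from 0.29 through a median of 0.59 to 0.88. The middle arrays had a lowest value of -0.51, a median of 0.00 and a highest of 0.27. The group means were -0.94 ± 0.14 (SD, n = 62) and 0.57 ± 0.14 (SD, n = 62), a difference of 1.52 or 2.86-fold that the choice of the groups made.

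The low group was set apart from the other arrays and the high group was not. Of the arrays used, 61 lay below -0.6, only 5 between -0.6 and -0.3, 111 between -0.3 and 0.2, 20 between 0.2 and 0.4, and 51 at 0.4 or above. The widest gap below the median, from -0.71 to -0.53, had 61 arrays under it, so the last member of the low group lay on the far side of that gap. At the low edge the last member stood at -0.535 and the first array outside at -0.509. At the high edge these values were 0.295 and 0.271, and 19 arrays lay within 0.1 of the edge, against 3 at the low edge. The mean of the middle arrays was 0.00 ± 0.13 (SD), which is 0.95 above the low and 0.57 below the high group. Abhd1 had an SD of 0.56 over all arrays used, against a median of 0.18 over all genes, and ranked 174th of 11508 genes by SD.

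**Figure D1:**
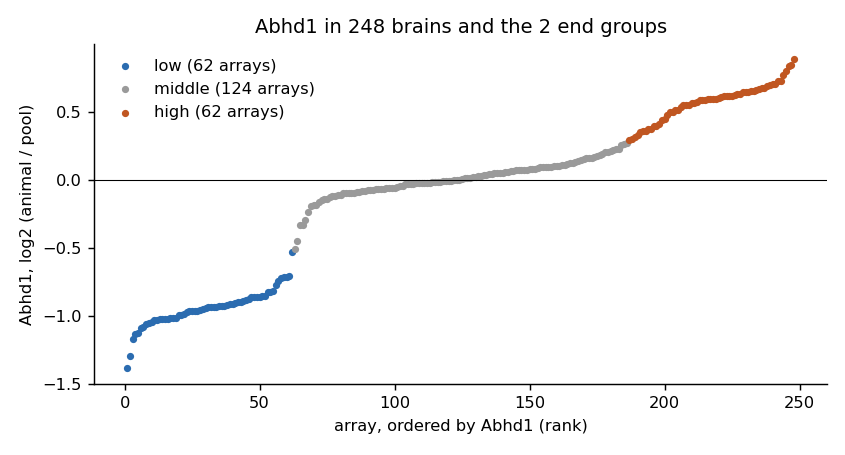
Abhd1 as log2 of animal over pool (vertical axis) for all arrays used, ordered by that value (horizontal axis), 1 point per array, coloured by group. Nearly all of the low group lies under a gap from -0.71 to -0.53, while the high group begins at 0.29 within a continuous run of values.

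Of 11507 genes tested with limma, 50 differed between the groups at a Benjamini-Hochberg adjusted p under 0.05, which is 0.435% of all genes, and 848, or 7.37%, had an unadjusted p under 0.05. Here a gene is called when its adjusted p is under 0.05. Chromosome 5 held 45 of the 50, or 7.01% of its 642 genes, and the other chromosomes held 2, or 0.0199% of 10030. The other 3 had gene identifiers that the reference did not place, 0.359% of 835 such genes, with 2 higher (0.24%) and 1 lower (0.12%) in the low group. At an unadjusted p under 0.05 the shares were 23.2% on chromosome 5, 6.36% elsewhere and 7.31% for genes without a place, with the other autosomes and X between 3.60% on chromosome 3 and 9.13% on chromosome 10.

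The called genes of chromosome 5 went both ways and most differences were small. In the low group 20 were higher (3.12% of the chromosome's genes) and 25 were lower (3.89%). The sizes of the 45 differences ran from 0.07 to 0.64 with a median of 0.19, which is 1.05-fold to 1.56-fold with a median of 1.14-fold. Of them, 13 reached 0.3 or 1.23-fold. Without regard to the test, 17 genes of chromosome 5 and 14 of all other chromosomes reached that size. Over all genes of the chromosome the median size was 0.03, against 0.02 elsewhere. RefSeq lists 44 of the 45 as protein coding, and 632 of the 642 genes tested on the chromosome, so nothing is read from this count.

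**Figure D2:**
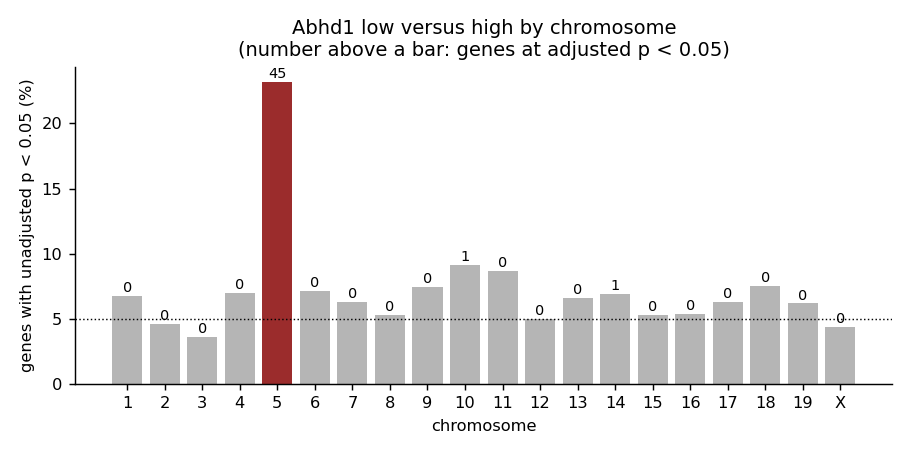
Percent of genes with an unadjusted p under 0.05 between the Abhd1 end groups (vertical axis, from 0) for each autosome and X (horizontal axis), with the number called above each bar and a dotted line at 5%. Chromosome 5 stands at 23.2% with 45 called, and no other chromosome exceeds 9.13% or 1 called.

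The called genes lay along a long stretch of the chromosome and not only beside Abhd1. Positions are given here as places, the rank of a gene among the measured genes counted from Abhd1 in the order of assembly GRCm38.p6, so that an adjacent gene is at place 1, since the build behind the array's probes is not stated. Abhd1 has 87 measured genes before it and 555 after it, and 10 called genes lay before it and 35 after it. The first 300 places after it, with all those before it, held 43 called of 387 genes, or 11.1%. The remaining 255 genes held 2, or 0.784%.

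The share was uneven within that stretch. It was highest, 22%, from place 51 to 100 after Abhd1, where 11 of 50 genes were called. From 51 to 87 places before Abhd1 it was 16.2%, with 6 of 37, and from 11 to 50 places before it was 5%, with 2 of 40. Of the 10 genes just before Abhd1 2 were called (20%), of the 10 just after it 1 (10%), and of the 40 at places 11 to 50 after it 3 (7.5%). The 100 genes at places 101 to 200 held 10 called and the 100 at 201 to 300 held 8. The next 100 held 1 (1%), and the last 55 genes of the chromosome held 1 (1.82%). Of the 100 genes at places 401 to 500 limma called 0, as did a Wilcoxon rank-sum test, with 11 at an unadjusted p under 0.05.

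**Figure D3:**
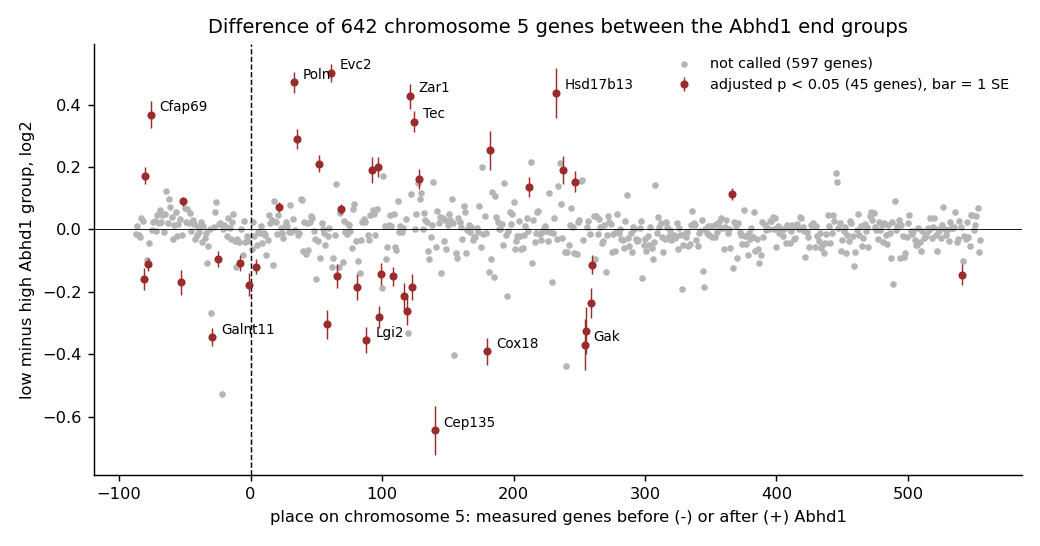
Low minus high difference in log2 (vertical axis) of 642 genes by place along chromosome 5 (horizontal axis, Abhd1 at 0), with called genes in red and bars of 1 SE. The called genes spread to both signs and lie mostly between 81 places before and 300 places after Abhd1.

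The nearest neighbours of Abhd1 had differences of small size. Of the 10 measured genes on each side, 3 were called, all lower in the low group, and the 17 others had differences between -0.08 and 0.03. The share called was 7.01% over chromosome 5 and 0.435% over all genes, and no test of nearness to Abhd1 was run. Of the 20, 16 were lower in the low group, with a median of -0.03, where 52.2% of the chromosome's genes and 49.6% of all genes were lower. Cgref1, a secreted calcium-binding growth regulator 1 place before Abhd1, ran from -0.74 through -0.06 to 0.32 in the low group and from -0.32 through 0.09 to 0.60 in the high group. These ranges overlapped over most of their length, and the difference was -0.18 ± 0.04 (SE, limma adjusted p = 0.00214). Cad, the enzyme that starts pyrimidine synthesis, 4 places after Abhd1, differed by -0.12 ± 0.03 (limma adjusted p = 0.00271). Drc1, a part of the complex that links dynein arms in motile cilia, 8 places before, differed by -0.11 ± 0.02 (limma adjusted p = 0.00941).

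Preb, the next measured gene after Abhd1 and the one that overlaps it, encodes a factor of vesicle budding at the endoplasmic reticulum. It ran from -0.28 through 0.00 to 0.21 in the low group and from -1.03 through 0.09 to 0.32 in the high group. The groups overlapped almost wholly, apart from 10 high arrays above every low one and 1 below. Its difference was -0.06 ± 0.03 and was not called (limma adjusted p = 0.648). It was called when all arrays were split at the median of Abhd1, at -0.10 (limma adjusted p = 0.00122). A fit on Abhd1 as a continuous value within the middle arrays called it too (limma adjusted p = 1.57e-06). There it stood at -1.05 as low minus high, scaled to the Abhd1 difference of the end groups. The split called 174 and the fit within the middle arrays 306 of the 642 genes of chromosome 5.

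The called genes are given below in the order of their known roles, and no group of them was tested. Evc2, a membrane protein of the primary cilium needed for Hedgehog signalling, ran from -0.003 through 0.23 to 0.84 in the low group and from -0.61 through -0.28 to 0.63 in the high group. All 62 low arrays lay above the median of the high group, and 59 of the 62 high arrays lay below every low array. The low group was higher by 0.50 ± 0.03 (SE, limma adjusted p = 2.89e-29), or 1.42-fold, with the lowest p of any gene tested. Cfap69, a protein of cilia and sperm tails 76 places before Abhd1, was higher by 0.37 ± 0.04 in the low group (limma adjusted p = 2.08e-11). Its values ran from -0.32 through 0.18 to 1.85 there and from -0.78 through -0.19 to 0.32 in the high group. Of the low arrays 13 lay above every high array, 9 high arrays lay below every low array, and 60 of 62 low arrays exceeded the high median.

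Cep135, a scaffold protein of centrioles 140 places after Abhd1, had the largest difference on the chromosome. It ran from -1.23 through -0.67 to 1.19 in the low group and from -1.03 through 0.30 to 0.90 in the high group. The ranges overlapped, though 57 low arrays lay below the high median. The low group was lower by 0.64 ± 0.08 (SE, limma adjusted p = 4.08e-10), or 1.56-fold. Akap9, which anchors protein kinase A at centrosomes and the Golgi, was lower by 0.16 ± 0.03 (limma adjusted p = 0.003). Of these genes 2, Cep135 and Akap9, rested on 1 probe of 2, as described with the probes.

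Poln, a DNA polymerase that copies past damaged bases, lies 33 places after Abhd1. It ran from -0.07 through 0.30 to 1.12 in the low group and from -0.55 through -0.16 to 0.16 in the high group. Between the groups 48 low arrays lay above every high array and 45 high arrays below every low array. The low group was higher by 0.47 ± 0.03 (SE, limma adjusted p = 2.32e-23), or 1.39-fold.

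Mxd4, a repressor that competes with Myc for its partner Max, was higher in the low group by 0.29 ± 0.03 (limma adjusted p = 8.69e-13). Its medians were 0.17 in the low and -0.14 in the high group, with a range from -0.57 to 0.44 against -0.82 to 0.31. Most of both ranges was shared, and 58 of 62 low arrays exceeded the high median. Brdt, a reader of acetylated histones known from male germ cells, was higher by 0.15 ± 0.03 (limma adjusted p = 0.00363), and Zfp33b, a zinc finger protein, by 0.19 ± 0.04 (limma adjusted p = 0.00819). Paxip1, a protein of the response to DNA damage, was lower by 0.09 ± 0.02 (limma adjusted p = 0.0463). Lcorl, a DNA-binding protein known for its association with body size, was lower by 0.18 ± 0.04 (limma adjusted p = 0.00531).

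Zar1, known as a maternal factor of the egg, was among the genes closest to Abhd1 in pattern. It ran from -0.30 through 0.26 to 0.86 in the low group and from -0.62 through -0.21 to 0.43 in the high group. The high median was exceeded by 59 low arrays, and 23 high arrays lay below every low one. The low group was higher by 0.43 ± 0.04 (SE, limma adjusted p = 8.43e-16), or 1.35-fold.

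Galnt11, which starts the O-linked sugar chains of proteins, lies 29 places before Abhd1. It ran from -0.44 through -0.18 to 0.32 in the low group and from -0.12 through 0.18 to 0.51 in the high group. Of the low arrays 43 lay below every high array, and 14 high arrays lay above every low one. The low group was lower by 0.35 ± 0.03 (SE, limma adjusted p = 3.90e-19), or 1.27-fold.

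Pgm2, a phosphoglucomutase, ran from -0.50 through -0.17 to 0.85 in the low group and from -0.36 through 0.15 to 0.45 in the high group. The top low array exceeded every high array, while 57 of 62 low arrays lay below the high median. The difference was -0.28 ± 0.04 (limma adjusted p = 9.81e-10). Ugdh, which makes the glucuronate donor UDP-glucuronate, was lower by 0.15 ± 0.03 (limma adjusted p = 0.00162). Dgkq, a kinase that turns diacylglycerol into phosphatidic acid, was lower by 0.32 ± 0.07 (limma adjusted p = 0.00844).

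Hsd17b13, a protein of lipid droplets, ran from -0.72 through 0.23 to 1.08 in the low group and from -1.13 through -0.17 to 1.35 in the high group, which overlapped over nearly the whole range. Its difference was 0.44 ± 0.08 (limma adjusted p = 0.000141). Cyp51, the lanosterol demethylase of cholesterol synthesis, 80 places before Abhd1, was higher by 0.17 ± 0.03 (limma adjusted p = 4.10e-06).

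In mitochondria, Cox18, which inserts a subunit of cytochrome c oxidase into the inner membrane, was lower in the low group. It ran from -0.79 through -0.27 to 0.42 there and from -0.42 through 0.23 to 0.68 in the high group. Below the high median lay 58 low arrays, and 12 lay below every high array. The difference was -0.39 ± 0.04 (SE, limma adjusted p = 1.45e-11), or 1.31-fold.

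**Figure D4:**
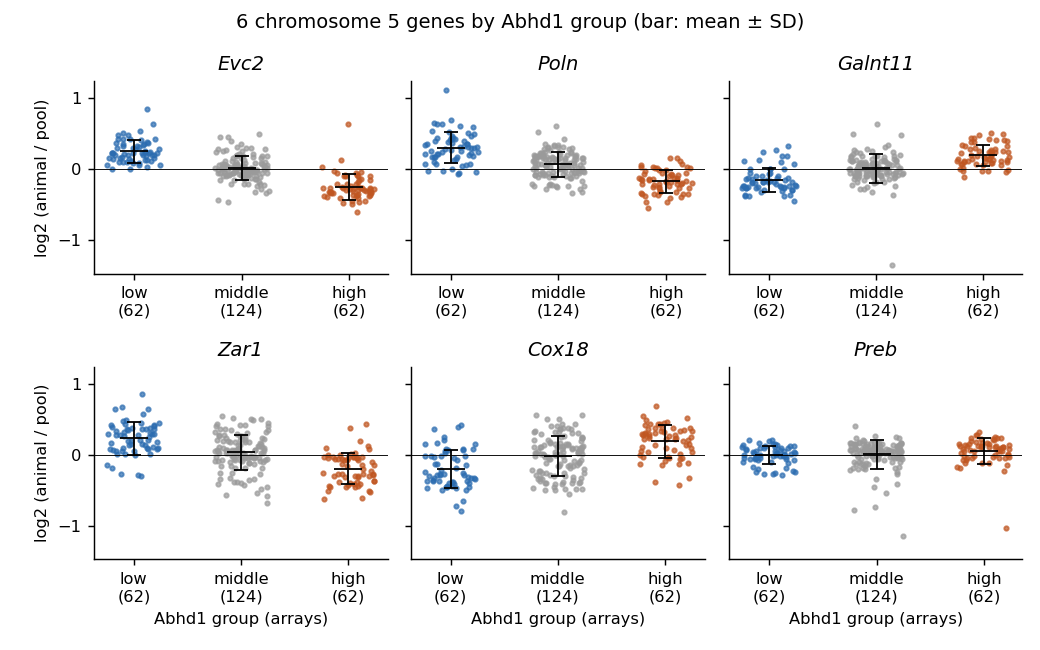
Log2 of animal over pool (vertical axis, shared) for 6 chromosome 5 genes in the low, middle and high Abhd1 groups (horizontal axis), 1 point per array with the mean and SD as a bar. Evc2, Poln and Zar1 step down and Galnt11 and Cox18 step up from low to high, with the middle arrays between, while the groups of Preb overlap almost wholly.

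Tec and Txk are non-receptor tyrosine kinases of 1 family, next to each other in the order of measured genes. Tec ran from -0.32 through 0.18 to 0.56 in the low group and from -0.47 through -0.20 to 0.28 in the high group. Of the low arrays 21 lay above every high array, and the difference was 0.35 ± 0.03 (SE, limma adjusted p = 6.72e-15). Txk was lower in the low group by 0.18 ± 0.04 (limma adjusted p = 0.00548).

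Gak, a kinase that helps strip clathrin from vesicles, lies next to Dgkq in the order of measured genes. It ran from -1.22 through -0.05 to 1.20 in the low group and from -1.07 through 0.18 to 0.88 in the high group. The ranges nearly coincided, though 54 of 62 low arrays lay below the high median, and the difference was -0.37 ± 0.08 (limma adjusted p = 0.00463). Gak and Dgkq had an r of 0.915 with each other over all arrays used, so they are not separate observations.

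The cytokine receptor Crlf2 was lower in the low group by 0.23 ± 0.05 (limma adjusted p = 0.00152) and the cyclin-dependent kinase Cdk14 by 0.11 ± 0.02 (limma adjusted p = 7.92e-05). Cckar, a receptor of cholecystokinin, was higher by 0.19 ± 0.04 (limma adjusted p = 0.00531). Depdc5, a subunit of a complex that restrains mTORC1, was higher by 0.07 ± 0.02 (limma adjusted p = 0.00600). Tbc1d1, which acts on Rab proteins in glucose transporter traffic, was lower by 0.14 ± 0.03 (limma adjusted p = 0.0152), and Clnk, an adaptor of immune receptors, was higher by 0.07 ± 0.02 (limma adjusted p = 0.00786).

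Lgi2, a secreted protein of the family that organises synapses, ran from -0.81 through -0.25 to 0.31 in the low group and from -0.53 through 0.10 to 0.59 in the high group. Of the low arrays 59 lay below the high median, and the difference was -0.35 ± 0.04 (SE, limma adjusted p = 1.19e-10). Wfs1, a protein of the endoplasmic reticulum that is mutated in Wolfram syndrome, differed by -0.30 ± 0.05 (limma adjusted p = 1.15e-06), with medians of -0.21 and 0.13. Within the higher-numbered animals alone Wfs1 was not called (-0.22, limma adjusted p = 0.298).

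Gabra2, a subunit of the GABA-A receptor with a known intronic variant of C57BL/6J that lowers its RNA, ran from -0.60 through -0.13 to 0.85 in the low group. In the high group it ran from -0.63 through 0.12 to 0.59. The ranges were nearly the same, though 54 of 62 low arrays lay below the high median. The difference was -0.21 ± 0.04 (limma adjusted p = 0.000652), and it was -0.21 (limma adjusted p = 0.0514) with 40 arrays a group and -0.12 (limma adjusted p = 0.936) within the higher-numbered animals. Gsap, a regulator of gamma-secretase, was lower by 0.17 ± 0.04 (limma adjusted p = 0.0107).

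Atp10d, a lipid flippase that RefSeq lists as a transcribed pseudogene in the reference strain, as it does Abhd1, differed by -0.26 ± 0.04 (limma adjusted p = 1.57e-05). Its values ran from -0.65 through -0.16 to 0.36 in the low group and from -0.94 through 0.07 to 0.67 in the high group, overlapping over most of the range. Of 642 genes tested on the chromosome, 4 are listed as such pseudogenes and Atp10d was the 1 of them called. Over the chromosome 7.01% of genes were called, and nothing is read from a count over 4 genes. Slc2a9, a urate transporter, differed by -0.15 ± 0.04 (limma adjusted p = 0.0292), and Urad, an enzyme of urate breakdown at place 541, by -0.14 ± 0.03 (limma adjusted p = 0.00639).

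The remaining called genes were Afm, Afap1, Nwd2, Ociad2, Anxa3, Armc10 and Tmem120b, all higher in the low group, and Gtpbp6, which was lower. Afm, a vitamin E binding protein of plasma, had the largest of these differences at 0.25 ± 0.06 (limma adjusted p = 0.0183). Afap1, which binds actin filaments, was higher by 0.21 ± 0.03 (limma adjusted p = 1.15e-09), with 27 low arrays above every high array. Tmem120b, at place 366, was higher by 0.11 ± 0.02 (limma adjusted p = 6.11e-05) and was, with Urad, 1 of the 2 called genes beyond place 300.

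Arrays between the end groups took no part in the choice of the groups or in the fit, other than by falling between. Their mean lay between the means of the end groups for all 45 called genes of chromosome 5. The same held for 301 of the 597 genes of the chromosome that were not called and for 44.7% of all genes tested. The called genes were picked for end means that lie apart, which by itself makes a middle mean between them likely. Genes not called mostly have end means close together, so these shares are no like background and nothing is read from the count. On a scale from 0 at the low mean to 1 at the high mean, the middle mean of the called genes had a median of 0.47 and ran from 0.15 for Ugdh to 0.64. Abhd1 itself stood at 0.63. Evc2 stood at 0.47 and Galnt11 at 0.46, though within the middle arrays alone the fit had Evc2 in the opposite direction (-0.64 as low minus high, scaled to the Abhd1 difference of the end groups, limma adjusted p = 0.000684).

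A fit within the middle arrays called far more genes than the comparison of the ends. Over those arrays, whose Abhd1 spans -0.51 to 0.27, limma was fitted on Abhd1 as a continuous value. It called 5035 of 11507 genes, with 306 of 642 on chromosome 5 and 4338 of 10030 elsewhere. Between the end groups these were 45 of 642 and 2 of 10030. The shares on and off chromosome 5 thus lay close together within the middle arrays, unlike between the end groups. The fit within the middle arrays shared 17 of the 50 genes of the comparison of the end groups, 5 of them with the opposite sign. Within these arrays Eif2s3y, a Y-linked gene that differs between the sexes, was higher by 1.17 ± 0.18 for each 0.1 by which Abhd1 was lower (limma adjusted p = 1.07e-07). The largest absolute r of Abhd1 with any of the first 5 principal components of the genes off chromosome 5 was 0.491 in the middle arrays and 0.200 in the end groups. With Eif2s3y as a covariate, an alternative added after the data were seen, the fit called 5751 of 11506 genes. Between the end groups Eif2s3y differed by 0.22 ± 0.56 (limma adjusted p = 0.927). What moves Abhd1 within the middle arrays was not tested.

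Likeness to Abhd1 over all arrays used, 249 less 1, was described with Pearson r and Spearman rho, with no test, since Abhd1 chose the groups and all arrays share the pool. The 5 genes with the largest absolute r were Evc2 (r -0.64, rho -0.63), Poln (r -0.62, rho -0.61), ADRM1 (r -0.56, rho -0.56), Galnt11 (r 0.56, rho 0.58) and Zar1 (r -0.53, rho -0.55). All but ADRM1 lie on chromosome 5. Within the middle arrays alone the fit had the opposite direction for Evc2, as given above, for Poln (-0.24, limma adjusted p = 0.286) and for ADRM1 (-0.18, limma adjusted p = 0.457), on the same scale. Among themselves these genes were more alike in some pairs than in others. Between Poln and ADRM1 r was 0.685, larger in size than any r with Abhd1 given here. It was 0.598 between Evc2 and Poln and -0.269 between Evc2 and Galnt11.

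Most called genes rested on a single probe, 39 of the 45, and the 6 others had 2 probes each. Both probes had the same sign for 4 of the 6, Armc10, Cdk14, Depdc5 and Tbc1d1, though only Armc10 was called on both. The probes of Cep135 differed most. The first ran from -2.49 through -1.42 to 2.51 in the low group and from -2.08 through 0.52 to 1.18 in the high group. It was lower in the low group by 1.30 ± 0.16 (SE, limma adjusted p over all probes 1.58e-10), or 2.46-fold. The second ran from -0.26 through 0.07 to 0.48 in the low group and from -0.36 through 0.07 to 1.40 in the high group, with a difference of 0.01 ± 0.04 (limma adjusted p over all probes 0.965). The groups were apart on the first probe and lay on top of each other on the second.

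Akap9 showed the same split, with -0.33 ± 0.04 (limma adjusted p over all probes 1.52e-09) on 1 probe and 0.01 ± 0.03 (limma adjusted p over all probes 0.948) on the other. For Armc10 the probes gave 0.09 and 0.08, and both were called (limma adjusted p over all probes 3.64e-06 and 8.63e-05). For Tbc1d1 they gave -0.15 and -0.14, for Depdc5 0.07 and 0.07, and for Cdk14 -0.15 and -0.07. In each of these genes only the probe given first was called. The other had a limma adjusted p over all probes of 0.609 for Tbc1d1, 0.548 for Depdc5 and 0.339 for Cdk14. Whether a strain variant lies under a probe, or the probes of a gene read different transcripts, was not tested, and the probe sequences were not analysed here.

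**Figure D5:**
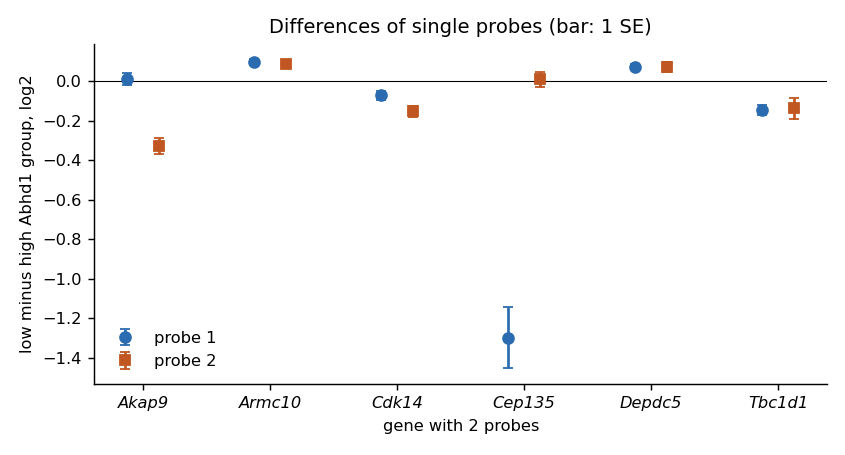
Low minus high difference in log2 with 1 SE (vertical axis) for each probe of the 6 called chromosome 5 genes that had 2 probes (horizontal axis). The probes of Cep135 stand at -1.30 and 0.01 and those of Akap9 at -0.33 and 0.01, while the other 4 genes have probes of the same sign.

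Off chromosome 5 the called genes were 2, both higher in the low group. Synpo2l, an actin-associated protein of muscle on chromosome 14, ran from -0.87 through 0.22 to 0.87 in the low group and from -1.38 through -0.12 to 0.76 in the high group. Above the high median lay 52 low arrays, and the difference was 0.53 ± 0.09 (SE, limma adjusted p = 4.61e-06), or 1.45-fold. Mip, the lens aquaporin on chromosome 10, differed by 0.13 ± 0.03 (limma adjusted p = 0.0107), and was not called with animal 144 kept in (0.12, limma adjusted p = 0.0531), with 40 arrays a group (0.13, limma adjusted p = 0.125), or within the lower-numbered (0.08, limma adjusted p = 0.472) or the higher-numbered animals (0.18, limma adjusted p = 0.173). Of the 4997 genes of other chromosomes that were lower in the low group, limma and the Wilcoxon rank-sum test each called 0, with 317 at an unadjusted p under 0.05.

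The 3 called genes without a place were ADRM1, Coq2 and FMN2, whose identifiers are not those of the mouse reference used. The one listed as ADRM1, the name of a ubiquitin receptor of the proteasome, ran from -0.19 through 0.30 to 1.52 in the low group and from -0.58 through -0.14 to 0.42 in the high group. Of the low arrays 61 exceeded the high median, and the difference was 0.44 ± 0.04 (SE, limma adjusted p = 3.58e-16). Coq2, an enzyme of coenzyme Q synthesis whose symbol is that of a mouse gene on chromosome 5, was higher by 0.17 ± 0.03 (limma adjusted p = 1.71e-05). FMN2, the name of a formin that nucleates actin, was lower by 0.27 ± 0.06 (limma adjusted p = 0.0166). Placing such genes by their exact symbol put 46 called genes on chromosome 5 and left 2 elsewhere.

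Other members of the family of Abhd1 and of its wider enzyme class were taken from lists. Of 20 other ABHD genes listed, 9 were measured, with differences from -0.06 to 0.03 and a median of -0.04. Of 27 other serine hydrolases of lipids, 20 were measured, with a median of -0.00, where all genes had 0.00. Neither limma nor the Wilcoxon test called any of these 29 genes, and 0 had an unadjusted p under 0.05. Over all genes 0.435% were called and 7.37% had such a p, and from a list this short the absence of calls shows no difference from that background.

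Of 12 genes with a known functional variant between the parental strains, 10 were measured, 2 of them on chromosome 5, Gabra2 and Pde6b, and 1, Gabra2, was called. The background was 0.435% over all genes and 7.01% on chromosome 5. Pde6b, the rod phosphodiesterase that C3H/HeJ lacks, lies at place 252 after Abhd1. It ran from -0.60 through 0.10 to 0.90 in the low group and from -1.16 through 0.01 to 0.86 in the high group, which overlapped almost wholly. Its difference of 0.16 ± 0.05 was not called (limma adjusted p = 0.204). It was called without the 12 arrays of largest SD (0.19, limma adjusted p = 0.0164), with all arrays split at the median of Abhd1 (0.13, limma adjusted p = 0.00431) and with Abhd1 as a continuous value over all arrays (0.16, limma adjusted p = 0.0410). Within the middle arrays alone it was called at 0.65 on the scale of the end groups (limma adjusted p = 0.0283). In this order the settings called 54, 174, 58 and 306 of the 642 genes of chromosome 5. Calls were thus common in the split and within the middle arrays, and little is read from those of Pde6b.

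Of 22 lists of cell types, brain regions, other tissues and responses, none had a called member with limma or with the Wilcoxon test. Of their 156 measured genes, 11 had an unadjusted p under 0.05. With 0.435% called and 7.37% at such a p over all genes, nothing is read from these counts. The 6 measured pituitary genes had a median difference of -0.63, with 3 at an unadjusted p under 0.05, and the summed level of the list, as its mean, spanned -3.46 to 1.82 in the low and -3.24 to 2.31 in the high group. The 6 measured cerebellar genes had a median of -0.12. All 9 measured immediate early genes were higher in the low group, with a median of 0.10 and 5 at an unadjusted p under 0.05, and their mean spanned -0.65 to 0.80 in the low and -0.56 to 0.52 in the high group. The part of dissection or of neuronal activity in single differences was not tested. With Gh and Gabra6 as covariates limma called 45 genes of chromosome 5, 41 of them the same ones.

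The end groups were balanced in the spread of their arrays and in animal number. The SD of an array over its genes had a median of 0.275 in the low and 0.270 in the high group. Each group held 34 lower-numbered and 28 higher-numbered animals. Within the lower-numbered animals alone limma called 26 genes of chromosome 5, and within the higher-numbered alone 17, with fewer arrays in each. Of the 45 genes 20 lost the call in the lower-numbered and 29 in the higher-numbered animals, and 0 reversed in either part. Gak, Dgkq, Afm, Crlf2 and Cckar were among those called in neither. Evc2 and Galnt11, called in both, differed by 0.49 and 0.52 and by -0.38 and -0.31. A test of the difference between the parts (limma interaction) called 0 of all genes, with a lowest adjusted p of 0.587 and 685 genes, or 5.95%, at an unadjusted p under 0.05. With animal 144 kept in and the groups chosen again, limma called 34 genes of chromosome 5, 33 of them the same. The 12 that lost the call were Atp10d, Nwd2, Cckar, Txk, Cgref1, Drc1, Anxa3, Brdt, Gsap, Ociad2, Slc2a9 and Tbc1d1, with adjusted p from 0.0555 to 0.839. Of 30876 array pairs 6 correlated under -0.3 over probes, with a lowest value of -0.344, and since the labels name 1 dye order for all arrays their direction was kept.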

How the data were processed

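The authors deposited a log10 ratio for each probe on each array, with the animal in Cy3 and the pool in Cy5, per the labels. How the arrays were scanned, background-corrected and dye-normalized is not given in the sources used here. Base and direction come from the Y-linked genes: the upper clusters of Eif2s3y and Kdm5d had medians of 0.319 and 0.351, near the log10 of 2 (0.301) of a pool of both sexes, so positive values are higher in the animal. The lowest array median was -0.00627 and the highest 0.0250, which shows centring before deposit in some way not known here, and the scale ended at -2 and 2. Intensities are not analysed here. Precision is limited by how many arrays a group holds.

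Of 23388 probes 13645 carried 1 gene symbol in the platform annotation, 48 several and 9695 none. The 13444 probes with 1 symbol and at least 90% of arrays measured were averaged to 11508 genes, with missing values set to the probe's mean over arrays (0.710% of all values were missing). Values were divided by 0.301 to give log2. Assembly GRCm38.p6 placed 10673 genes by identifier and 835 were not placed. Where a title and a source name disagreed on the animal (1 sample), the source name was followed.

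Groups were fitted with limma 3.58.1 in R 4.3.3 (lmFit and eBayes), two-sided, with Benjamini-Hochberg adjustment over 11507 genes and no covariate. The method was tested on simulated data in which each gene varied independently of the others. That test therefore does not cover genes that vary together between arrays. Each animal is 1 replicate. Genes were named by rule: the 25 largest called differences on chromosome 5, the 10 genes nearest Abhd1 on each side, the called genes elsewhere, the 5 genes most like Abhd1, called members of 25 lists (246 genes, 195 measured) and checks of sex and dissection. The other called genes of chromosome 5 were named after their values were seen. The groups, genes and lists were chosen with earlier results of these data known. Alternatives covered group size, Abhd1 as a continuous value, centring, single arrays, animal number, covariates, probes, the scale's limits, the test and a filter on variation.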

Additional observations from a re-analysis of the deposited data

Results flagged for a closer look

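Probes without a gene symbol were not part of the comparison of genes, and some carried a signal. Of 9561 such probes, 22 differed between the Abhd1 groups at a limma p adjusted over all 23004 probes under 0.05, which is 0.230%, with 10 higher and 12 lower in the low group. The largest signal was on the probe 10024407040. It ran from -1.16 through -0.65 to 0.08 in the low group and from -0.27 through 0.44 to 1.07 in the high group, with the middle arrays at a median of -0.01. It was higher in the high group by 1.09 ± 0.04 (SE, limma adjusted p over all probes 3.83e-45), or 2.13-fold, more than any named gene other than Abhd1 by p-value, and had an r of 0.840 with Abhd1 over all arrays used. Which transcript this probe reads is not known here.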

How the results depend on the processing

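The 45 calls on chromosome 5 were recomputed under the 18 settings planned in advance, which gave 800 values. Of these 685 kept direction and call, 97 kept direction and lost the call, and 18 reversed, all in the fit within the middle arrays. Taken by gene, only 1 of the 45 kept direction and call in every planned setting. At least 1 setting took the call from 37 genes without a change of direction, and 18 genes reversed. In the fit within the middle arrays 11 kept direction and call and 16 lost only the call. Alternatives added later are not in this tally. Within the middle arrays 3 of the 45 were called with the opposite sign with 5 principal components, and 7 with Eif2s3y as a covariate. Of 11507 genes the main comparison called 50, with 45 of 642 on chromosome 5 and 2 of 10030 on other chromosomes. The counts that follow are over the same numbers of genes, apart from 11506 and 10029 with Eif2s3y as a covariate. With all arrays split at the median of Abhd1 these counts were 1790, 174 and 1492, and with 5 principal components added to that split 171, 58 and 97. With Abhd1 as a continuous value over all arrays they were 84, 58 and 22. Within the middle arrays they were 5035, 306 and 4338, with 5 principal components 1723, 105 and 1484, and with Eif2s3y as a covariate 5751, 336 and 4983. Alternatives that add components or Eif2s3y to a split or to the middle arrays, and the placing by symbol, were chosen after seeing the data. With 5 principal components in the comparison of the end groups the counts were 79, 69 and 5. Within the lower-numbered animals they were 32, 26 and 4, and within the higher-numbered 20, 17 and 1. Other chromosomes held 8 calls with 40 arrays a group, 1 with animal 144 kept in and 4 with the probe of largest SD. The parts by animal number held fewer arrays. The cause of these changes was not tested.

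Within the middle arrays, scaled to the Abhd1 difference of the end groups, the reversed low minus high values were 0.37 for Cep135, -0.64 for Evc2, -0.24 for Poln, -0.060 for Cfap69, 0.20 for Lgi2, 0.018 for Wfs1, -1.04 for Mxd4, -0.31 for Afm, -0.77 for Afap1 and -0.081 for Zfp33b. They were -0.18 for Cckar, 0.13 for Lcorl, 0.091 for Drc1, -0.16 for Armc10, -0.48 for Cyp51, 0.59 for Slc2a9, -0.15 for Tmem120b and 0.45 for Urad, and off the placed genes -0.18 for ADRM1, -0.12 for Coq2 and 0.25 for FMN2. Eif2s3y was called neither between the end groups (0.22) nor with 5 principal components there (-0.57, limma adjusted p = 0.876), but it was called with all arrays split at the median (1.66, limma adjusted p = 0.00247) and within the middle arrays (limma adjusted p = 1.07e-07). No paired analysis was possible because the animals carry no replicate numbers shared between the groups. With animal number as a block of 4 parts 53 genes were called, 49 of them the same. Signal over background is unknown, so dim probes could not be set apart.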
